A study of Mus musculus with 11 samples.

Results

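Kainate receptors were followed here through 7 genes, the pore-forming subunits Grik1, Grik2, Grik3, Grik4 and Grik5 and the auxiliary proteins Neto1 and Neto2. These are all the genes with those symbols among the 48709 genes of the count tables, taken by name without selection among them by measured value. Earlier results of these data were known when the members and the lists compared with them were chosen. Their mRNA was measured by RNA-seq in primary hippocampal neurons from CD1 mouse embryos (embryonic day 17). On day 10 in vitro (DIV10) the cultures received lipid nanoparticles (LNPs) and ApoE4, and they were harvested on DIV12 after 48 h. The nanoparticles carried a miR-181a-5p mimic in 5 samples and a negative control RNA in 6 samples, so that both groups share the LNP and the ApoE4. The hippocampi of several embryos were pooled for culture, and the labels do not say whether the samples of a group came from separate cultures. The p-values therefore measure the spread between these samples, which may be technical. The question addressed was whether the mimic changed the mRNA of these 7 genes.

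Kainate receptors are glutamate-gated cation channels built as tetramers of subunits. The products of Grik1, Grik2 and Grik3 (GluK1, GluK2 and GluK3) can form channels on their own, whereas those of Grik4 and Grik5 (GluK4 and GluK5, the high-affinity subunits) need one of the former to give a working receptor. Neto1 and Neto2 are single-pass membrane proteins with CUB domains that bind the receptor and slow its kinetics. In the hippocampus the receptor is best known from the mossy fibre synapses onto CA3 pyramidal cells, where it acts on both sides of the synapse, and from inhibitory interneurons. A microRNA lowers a transcript mainly through pairing of its seed, nucleotides 2 to 8, with the 3′ UTR.

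The sequences of both RNAs, as listed for the study, are shown with nucleotides 2 to 8 in capitals because the search for sites rests on them. The mimic equals the mature mmu-miR-181a-5p of RefSeq, which is encoded at Mir181a-1 (chr1:137966468-137966490, plus strand) and at Mir181a-2 (chr2:38852741-38852763, plus strand) of GRCm38.p6.
miR-181a-5p mimic: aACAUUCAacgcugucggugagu
negative control: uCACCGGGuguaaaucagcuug
A transcript pairs with the whole seed of the mimic where it holds TGAATGT, called a 7-base match. TGAATGTA adds an A opposite nucleotide 1 and is called an 8-base match, and GAATGT pairs with nucleotides 2 to 7 and is called a 6-base match. Each longer match holds the shorter ones, and only the transcript's own strand was searched.

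Of the 7 members, 3 held a 7-base match in the longest annotated 3′ UTR. Grik2 held 2 of them, Grik3 held 1 and Grik4 held 1, whereas Grik1, Grik5, Neto1 and Neto2 held 0. The same 3 genes are the members on the list of miR-181a-5p targets that the study predicted. The 7-base and 8-base sites, and the 6-base sites of Grik1 and Grik4 that also have the A opposite nucleotide 1, are printed in windows of 24 bases with the match in capitals, since these are the longest matches to the mimic. Grik2 held 4 further 6-base sites without that A, which are not printed.
Grik2, 7-base: cccttcctttgagTGAATGTtaca
Grik2, 8-base: ttgcatgtgtaaaTGAATGTAaca
Grik3, 8-base: tacaatatatataTGAATGTAaaa
Grik4, 7-base: gtggctcctgttcTGAATGTccta
Grik4, 6-base: aagcaaacaaacagGAATGTAacc
Grik1, 6-base: gagttttataagagGAATGTAgag
In GRCm38 the Grik2 windows lie at chr10:49100843-49100866 and chr10:49099533-49099556 on the minus strand, 255 and 1565 bases into the 3′ UTR of 6275 bases of transcript Grik2-207. The Grik3 window lies at chr4:125712470-125712493 on the plus strand, 4392 bases into the 3′ UTR of 6082 bases of Grik3-201. The Grik4 windows lie at chr9:42519035-42519058 (7-base) and chr9:42520053-42520076 (6-base) on the minus strand, 1784 and 767 bases into the 3′ UTR of 2694 bases of Grik4-202. The Grik1 window lies at chr16:87912518-87912541 on the minus strand, in the short 3′ UTR of 304 bases of Grik1-206.

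A 7-base match is common in transcripts of this kind. Among the 14512 tested genes with an annotated 3′ UTR, 2793 (19.25%) held at least 1, 6.20% held an 8-base match and 4.20% held at least 2 of the 7-base matches. The 3′ UTRs of Grik2 and Grik3 are long, at the 97.7th and 97.5th percentile of these genes, whose median was 1374 bases. Not every transcript of a gene carries its sites. The annotated Grik2 transcripts with 3′ UTRs of 1265, 614 and 563 bases held 1 match and those with 655 and 323 bases held 0, and the second Grik4 transcript, with a 3′ UTR of 417 bases, held 0. Counts per gene do not separate these transcripts. Neto1 and Neto2 have long 3′ UTRs of 5819 and 3948 bases without a match of even 6 bases, and the protein-coding Grik5 transcript ends in a short one of 520 bases, also without a match.

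**Figure D1:**
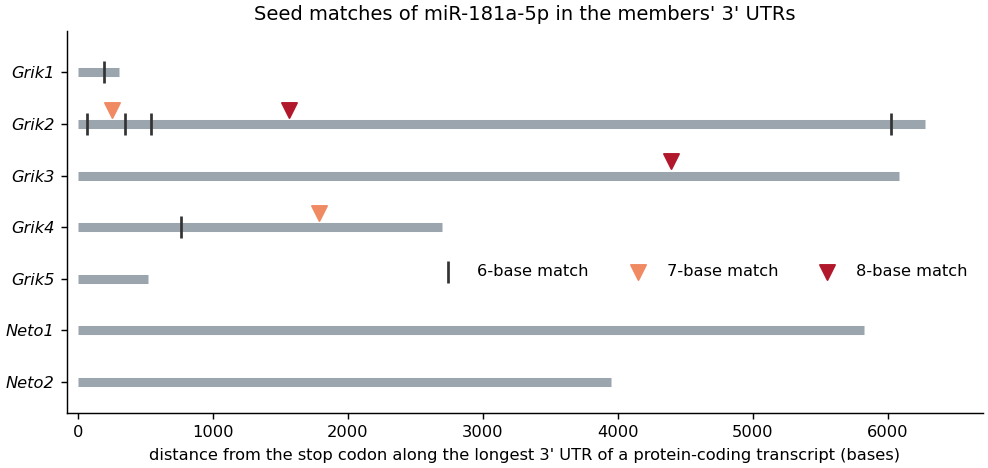
Seed matches of miR-181a-5p along the longest 3′ UTR of a protein-coding transcript of each member (x axis, bases from the stop codon). Grey bars give the length of the 3′ UTR, ticks are 6-base, light triangles 7-base and dark triangles 8-base matches; only Grik2, Grik3 and Grik4 carry triangles, and the bars of Neto1 and Neto2 are empty.

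All 7 genes were measured in all 11 samples well above the limit of detection. Total counts ran from 17287168 to 48091231 per sample, with control replicate 1 the deepest and the next at 28934923, and a count of 3 (the upper limit that a count of 0 allows) corresponds to 0.0624 to 0.174 CPM, the count per 1000000 counts of its sample. The lowest count of any member in any sample was 355, for Grik1, and the highest was 10192, for Grik5. Markers of the labelled cell type were abundant. The summed level of 8 neuronal markers was 8203 to 8390 CPM in the control and 8008 to 8153 CPM in the mimic samples, that of 7 astrocyte markers 2354 to 2643 CPM in the control and 2204 to 2469 CPM in the mimic samples, and that of 7 microglial markers 13.4 to 14.8 CPM over both groups. No marker of any list was at 0 in every sample. In bulk samples, fewer cells of a type and less RNA per cell cannot be told apart.

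To compare levels between genes, CPM was divided by the exon length of each gene in kilobases. On this length-scaled scale the high-affinity subunits stood first. Grik5 (chr7:25009849-25072346, minus strand) led with 39.6 ± 2.19 CPM per kb (SD, n = 11 samples), at the 94.0th percentile of all tested genes. Grik4 (chr9:42518135-42944493, minus strand) followed with 16.4 ± 0.597 and Neto2 (chr8:85636588-85700924, minus strand) with 14.4 ± 0.754 CPM per kb. The ranges of these 2 neighbours over samples overlapped, with Grik4 the higher in 10 of 11 samples. The subunits that can form channels on their own lay lower. Grik2 (chr10:49094833-49788766, minus strand) was at 5.39 ± 0.151, Grik3 (chr4:125490700-125714173, plus strand) at 4.13 ± 0.305 and Grik1 (chr16:87895900-88290265, minus strand) at 3.22 ± 0.149 CPM per kb. Neto1 (chr18:86394952-86506718, plus strand) was at 4.12 ± 0.255 CPM per kb, and its range overlapped that of Grik3, which was the higher in 5 of 11 samples. From the first to the last level was a factor of 12.3, and no other neighbours overlapped.

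**Figure D2:**
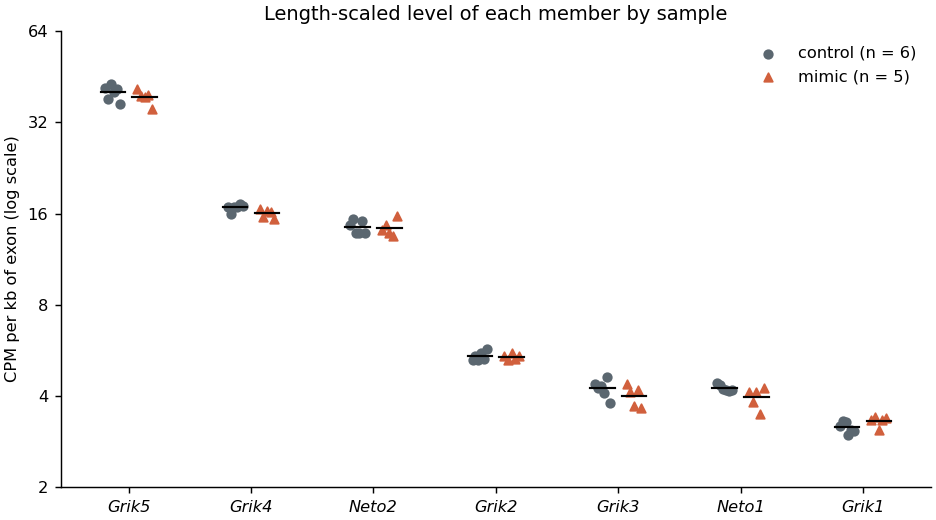
Length-scaled level of each member in each sample (y axis, CPM per kilobase of exon on a log scale), with control samples as circles, mimic samples as triangles and the group mean as a line. The order of the group means is the same in both groups but for Grik3 and Neto1, which lie side by side and swap places, from Grik5 at 35.4 to 43.0 down to Grik1 at 2.96 to 3.41 CPM per kb.

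The lower end of this order depended on which length was used. Grik1 has several transcripts, whose exons together cover 6721 bases while the longest transcript has 3655. With the longest transcript, Grik1 moved from last to the fifth place with 5.78 CPM per kb in the control group, ahead of Neto1 at 4.24 and Grik3 at 4.23, and the order of Grik5, Grik4, Neto2 and Grik2 was kept. As shares of the summed length-scaled level of the 5 subunits, Grik5 took 57.6% ± 1.23 (SD, n = 6) in the control and 57.4% ± 0.807 (n = 5) in the mimic group, and Grik4 took 24.04% ± 0.786 and 23.8% ± 0.482. Grik4 and Grik5 together ran from 80.7% to 82.4% in the control and from 80.3% to 81.7% in the mimic samples. Grik1 took 4.51% ± 0.240 in the control and 4.91% ± 0.312 in the mimic group. The ranges of the groups overlapped for each of these shares. Of the Neto pair, Neto2 took 77.2% ± 0.742 in the control and 78.4% ± 1.09 in the mimic group, with overlapping ranges. These shares are descriptions of mRNA and were not tested.

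None of the 7 members passed the test between mimic and control. The test was the quasi-likelihood test of edgeR over 17365 genes with Benjamini-Hochberg adjustment, a gene being called at an adjusted p under 0.05, and it called 0 of 7 members against 2.85% of all genes. In each direction the count was 0 of 7, against 1.77% of all genes called lower and 1.08% called higher. DESeq2 also called 0 of 7. At an unadjusted p under 0.05, 2 members (Neto1 and Grik4, both lower) were below the threshold, against 15.7% of all genes in either direction and 8.41% with lower values. The fold changes were negative, that is lower with the mimic, in 6 of 7 members, as they were in 50.1% of all genes, and the median log2 fold change was -0.053 beside -0.00015 for all genes tested. In 0 of 7 members were the groups separate, meaning that every mimic sample lay beyond every control sample, as they were in 2.89% of all genes.

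**Figure D3:**
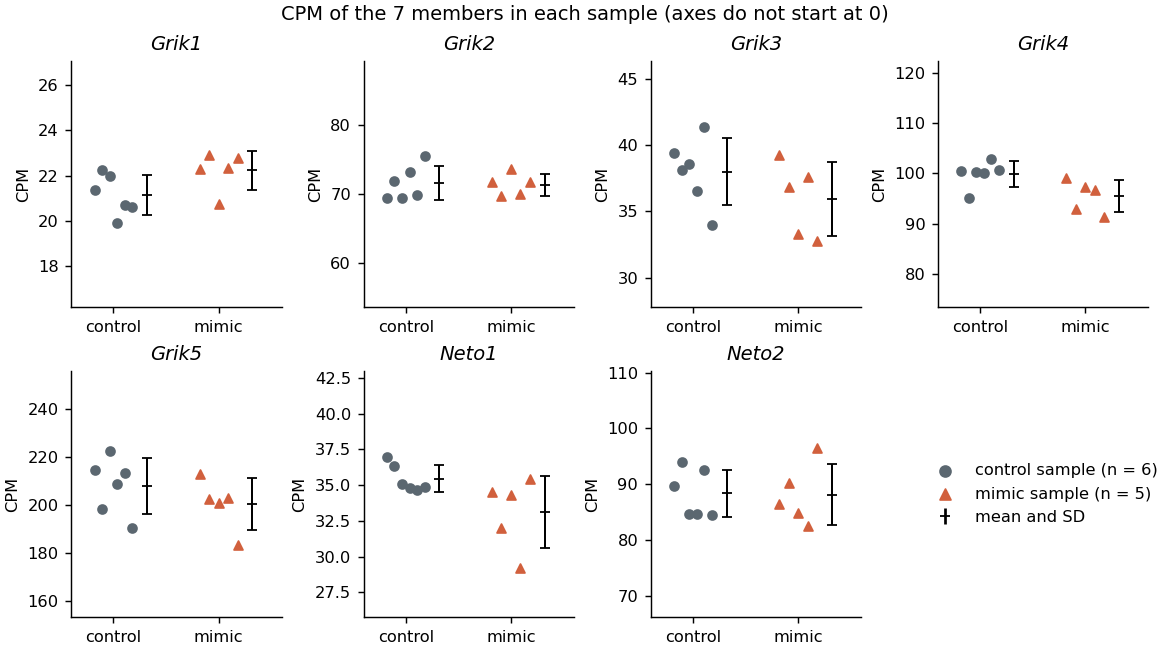
CPM of each member in each control sample (circles, n = 6) and mimic sample (triangles, n = 5), with the mean and SD of each group; each y axis spans 25% either side of the mean of that member and does not start at 0. Groups overlap for every member; 4 of 5 mimic samples of Neto1 lie below its lowest control, against 2 of 5 for Grik3 and Grik4.

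The 3 members with a full seed match were examined first. Grik2, the most studied subunit and the one the mossy fibre response depends on, is the only member with 2 matches. Its level ran from 69.4 to 75.5 CPM with a median of 70.9 in the control samples, and was 71.7, 69.6, 73.6, 69.98 and 71.6 CPM in mimic replicates 1 to 5. The mimic samples lay inside the control range. The change was -0.36% with a 95% confidence interval from -4.59% to 4.06% (log2 fold change -0.0052, SE 0.031, edgeR adjusted p = 0.964). Its sign turned with upper-quartile scaling (0.0050).

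Grik3 encodes a subunit with low glutamate sensitivity that is found mainly on the presynaptic side. It ran from 34.0 to 41.4 CPM with a median of 38.3 in the control samples, and was 39.2, 36.8, 33.3, 37.6 and 32.8 CPM in mimic replicates 1 to 5. Of the 5 mimic samples, 2 lay below the lowest control and the others lay among them. The change was -5.14% (95% interval -11.6% to 1.75%, log2 fold change -0.076, SE 0.049, edgeR adjusted p = 0.509). Grik3 had a wide error for its level. Its SE exceeded that of 90.6% of the 2806 genes within 1.5 times its CPM, among which the smallest called log2 change was 0.12 in size.

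Grik4, a high-affinity subunit known from CA3 pyramidal cells and dentate granule cells, ran from 95.1 to 102.9 CPM with a median of 100.3 in the control samples. It was 99.1, 93.0, 97.3, 96.7 and 91.4 CPM in mimic replicates 1 to 5. All 5 mimic samples lay below the control median and 2 lay below the lowest control, which was replicate 2 and stood apart from the other controls at 100.1 CPM or more. The means were 99.9 ± 2.56 (SD, n = 6) and 95.5 ± 3.19 CPM (n = 5), a change of -4.44% (95% interval -8.30% to -0.41%, log2 fold change -0.066, SE 0.029). The interval of this 1 gene excluded 0, but the edgeR p of 0.0322 became 0.261 after adjustment over all genes. An exact two-sided permutation test, which goes through all 462 arrangements of the group labels, gave an unadjusted p of 0.0390. Grik4 is on the predicted target list, of which 6.99% of the 1016 tested genes were called lower, while 0 of the 3 listed members were called. Of all tested genes with a 7-base match, 4.26% were called lower and the median log2 fold change was -0.023.

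Among the members without a full match, Neto1 had the largest change of the 7. Neto1, which also binds NMDA receptors, ran from 34.7 to 37.0 CPM with a median of 35.0 in the control samples. It was 34.5, 31.98, 34.3, 29.2 and 35.4 CPM in mimic replicates 1 to 5. Of the 5 mimic samples 4 lay below the lowest control, and replicate 5 lay among the controls. The means were 35.5 ± 0.955 (SD, n = 6) and 33.1 ± 2.52 CPM (n = 5), and the change was -7.23% (95% interval -12.8% to -1.36%, log2 fold change -0.11, SE 0.043). The edgeR p was 0.0184 before and 0.198 after adjustment, and the exact two-sided permutation test gave an unadjusted p of 0.0411. Mimic replicate 4 was the lowest sample, and without it the log2 fold change was -0.060 and the edgeR adjusted p 0.561. Neto1 shares 219 of its 8352 exon bases with an antisense gene (AC113599.1), which is not among the genes counted. Whether counting used strand is not given in the sources used here. Antisense reads within those 219 bases may therefore have been counted for Neto1.

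Neto2, the second auxiliary protein, which also binds the chloride transporter KCC2, did not show the lower values of Neto1. It ran from 84.5 to 94.0 CPM with a median of 87.2 in the control samples and was 86.4, 90.2, 84.9, 82.5 and 96.6 CPM in mimic replicates 1 to 5. The mimic samples spread past the controls at both ends. The change was -0.21% (95% interval -5.49% to 5.38%, log2 fold change -0.0030, SE 0.038, edgeR adjusted p = 0.987), and the sign of so small a change depended on the setting. The difference in response between Neto1 and Neto2 was not tested.

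Grik5, the most abundant member and the usual partner of GluK2, ran from 190.5 to 222 CPM with a median of 211 in the control samples. It was 213, 202, 201, 203 and 183 CPM in mimic replicates 1 to 5. A single mimic sample, replicate 5, lay below the lowest control. The change was -3.63% (95% interval -8.85% to 1.90%, log2 fold change -0.053, SE 0.038, edgeR adjusted p = 0.579). Grik5 was at -0.020 on the log2 scale without mimic replicate 5 and at -0.074 without mimic replicate 1. Despite its high counts, its SE exceeded that of 92.1% of the 1089 genes within 1.5 times its CPM.

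Grik1, whose product is known in the hippocampus chiefly from interneurons, was the only member with a positive fold change. It ran from 19.9 to 22.2 CPM with a median of 21.1 in the control samples and was 22.3, 22.9, 20.8, 22.4 and 22.8 CPM in mimic replicates 1 to 5. Of the 5 mimic samples, 4 lay above the highest control, and replicate 3 lay among the controls. The change was 5.36% (95% interval -1.05% to 12.2%, log2 fold change 0.075, SE 0.044, edgeR adjusted p = 0.442). The exact two-sided permutation test gave an unadjusted p of 0.0714. None of the 8 interneuron markers was called by edgeR (2 at an unadjusted p under 0.05, 0 by DESeq2), and their summed level was 496 to 541 CPM in the control and 488 to 524 CPM in the mimic samples. The 2 went opposite ways. Dlx1 was higher (log2 fold change 0.14), with 4 of 5 mimic samples above the highest control, and Npy was lower (-0.16).

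**Figure D4:**
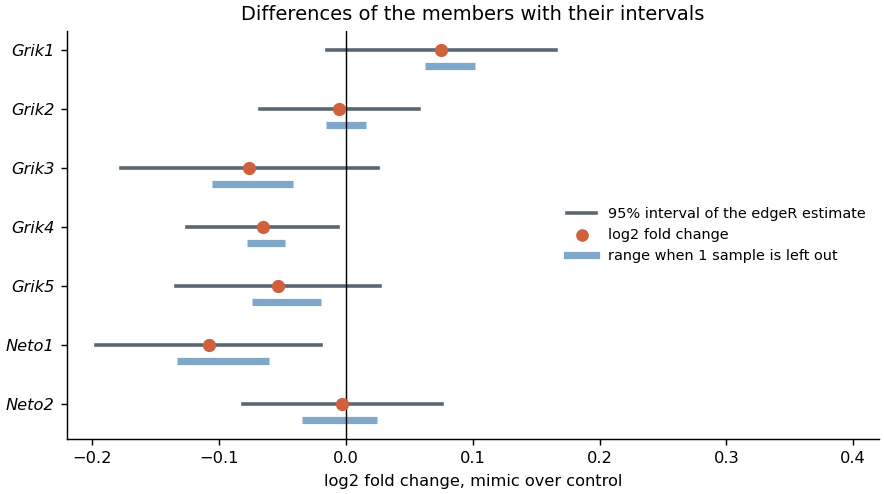
Log2 fold change of each member, mimic over control (x axis), with its 95% confidence interval from edgeR (thin line) and the range of the estimate when each of the 11 samples is left out in turn (thick line). The intervals of Grik4 and Neto1 lie below 0 before adjustment, those of the other 5 members include 0, and no estimate of Grik1, Grik3, Grik4, Grik5 or Neto1 changed sign when a sample was left out.

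Marker levels of several cell types moved with the groups, beside the lower values of Neto1 and Grik4. Of the neuronal markers 1 of 8 was called lower by edgeR (Slc17a7, the vesicular glutamate transporter VGLUT1) and 1 by DESeq2. At an unadjusted p under 0.05 there were 6 of 8, all lower. The median log2 fold change of the 8 was -0.054, beside -0.053 for the 7 members. The summed ranges given above did not overlap. Of 4 dentate granule cell markers 1 was called lower (Prox1, a transcription factor of these cells), and their sum was 76.9 to 85.2 CPM in the control and 72.2 to 75.8 CPM in the mimic samples. Prox1 is itself on the predicted target list and held 4 of the 7-base matches. Whether its lower level came through these matches or through fewer granule cells was not tested. Of 4 CA pyramidal cell markers 0 were called by edgeR (2 at an unadjusted p under 0.05, 0 by DESeq2), with sums of 230.8 to 239.8 and 226 to 243 CPM. Of the 2, Wfs1 was higher (log2 fold change 0.12) and Bok lower (-0.31). Of 7 astrocyte markers 0 were called by edgeR (4 at an unadjusted p under 0.05, 1 by DESeq2), with a median log2 fold change of -0.11 and the overlapping sums given above. Of 8 oligodendrocyte lineage markers 0 were called by edgeR (3 at an unadjusted p under 0.05, 1 by DESeq2), with a median of -0.057 and sums of 315 to 381 and 288 to 331 CPM. On the other side, 1 of 8 tested fibroblast and vascular markers (Cdh5) and 2 of 3 cycling cell markers (Top2a and Cdk1) were called higher by edgeR, with sums of 251 to 388 against 400.2 to 535 CPM and of 39.0 to 46.7 against 47.4 to 56.3 CPM. At an unadjusted p under 0.05 these were 7 of 8 and 3 of 3, DESeq2 called 4 and 2, and the medians were 0.46 and 0.38 on the log2 scale. The part of these levels in the values of the members was not tested.

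The genes that handle the receptor were taken as a list of 26 partners, of which 25 were tested and Klhl17 was not analysed here. The test called 1 of these 25 lower and 0 higher, against 1.77% and 1.08% of all genes. At an unadjusted p under 0.05 there were 5 of 25, against 15.7% of all genes. The median log2 fold change was -0.019, beside -0.00015 for all genes tested. The called gene was Nrxn3, a presynaptic neurexin that links kainate receptors to C1q-like proteins at mossy fibre synapses. Nrxn3 went from 103.5 ± 4.47 CPM (SD, n = 6, range 96.0 to 107.5) to 94.8 ± 3.43 CPM (n = 5, range 89.3 to 98.1), which is -0.13 on the log2 scale with an SE of 0.032 (edgeR adjusted p = 0.0264). The groups overlapped, and the call was lost when control replicate 1, 3, 5 or 6 or mimic replicate 2 or 4 was left out (edgeR adjusted p from 0.0521 to 0.113), while the log2 fold change in those fits stayed between -0.12 and -0.10. Its own secreted partners in the list, C1ql2 and C1ql3, had log2 fold changes of -0.074 and -0.069 and were not called.

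The other partners with the smallest p-values were not called. Cul3, the scaffold of a ubiquitin ligase that acts on GluK2, was at 171.8 ± 6.23 and 161.5 ± 7.199 CPM (log2 fold change -0.089, SE 0.030, edgeR adjusted p = 0.119). Dlg2, a postsynaptic scaffold, was at 575 ± 8.07 and 556 ± 5.96 CPM (log2 fold change -0.048, SE 0.021, edgeR adjusted p = 0.269), and all 5 of its mimic samples lay below the lowest control. Both Cul3 and Dlg2 are on the predicted target list. Snap25, a protein of vesicle fusion that also acts in the internalisation of GluK5, was at 889 ± 26.1 and 849 ± 47.7 CPM (log2 fold change -0.066, SE 0.030, edgeR adjusted p = 0.287). With 1 sample left out the log2 fold change of Snap25 ran from -0.0835 (without mimic replicate 1) to -0.034 (without mimic replicate 4). Adarb1, which edits the pore of GluK1 and GluK2, had a log2 fold change of -0.035, and counts per gene do not show editing.

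The 2 other families of ionotropic glutamate receptors were counted in the same fit, and of these 2 only the NMDA family held called subunits. Of 4 AMPA receptor subunits 0 were called by edgeR (1 at an unadjusted p under 0.05, 0 by DESeq2), with a median log2 fold change of -0.022. Of 7 NMDA receptor subunits 3 were called lower, against 1.77% of all genes, with a median of -0.13. Of these 3, Grin2b held 3 of the 7-base matches, Grin2a held 1 and Grin2c held 0, and none is on the predicted target list. Grin2a went from 145 to 125 CPM (log2 fold change -0.21, SE 0.027, edgeR adjusted p = 9.95e-05), Grin2b from 928 to 849 CPM (log2 fold change -0.13, edgeR adjusted p = 0.0145) and Grin2c from 13.6 to 10.8 CPM (log2 fold change -0.34, edgeR adjusted p = 0.0300). The families were not tested against each other. The largest change among the 7 kainate receptor genes, that of Neto1, was smaller in size than each of these 3. These 3 were named because they were called. The confidence interval of Neto1 (-0.197 to -0.0197) held the estimate of Grin2b (interval -0.188 to -0.0686). It also overlapped the intervals of Grin2a (-0.268 to -0.158) and Grin2c (-0.507 to -0.164). Of the uncalled NMDA receptor subunits, Grin1 (0.0532), Grin2d (0.0465) and Grin3a (-0.0222) changed less than Neto1 (-0.108). Grin3b changed more (-0.679, SE 0.402).

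**Figure D5:**
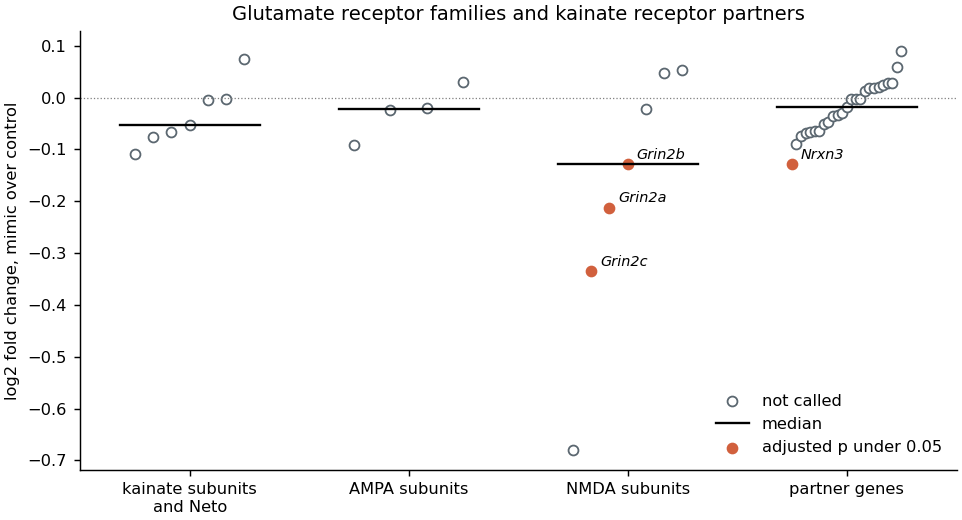
Log2 fold change, mimic over control (y axis), of the 7 kainate receptor genes, 4 AMPA and 7 NMDA receptor subunits and 25 partner genes, with filled points for genes called by edgeR and a line at each median. No kainate receptor gene is filled, against 3 NMDA receptor subunits and 1 partner (Nrxn3); the lowest open point is Grin3b, at under 1 CPM in every sample.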

How the data were processed

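The deposited files hold whole-number counts of reads per gene, which the authors made with STAR 2.5.2b (build mm10) and featureCounts of Subread 1.5.1 from single-end TruSeq reads. Strand settings and the annotation release are not given in the sources used here. A deposited table of normalized values was not used. Symbols, lengths and 3′ UTRs came from GENCODE M21 (GRCm38), which matched 48349 of 48709 genes, and promoters or proteins were not needed.

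The filter kept 17365 genes that reached 5 counts in 50% or more of the samples. They were tested with edgeR 4.0.16 in R 4.3.3 (TMM scaling, robust quasi-likelihood, group as the single term, two-sided, Benjamini-Hochberg). SE was the log2 fold change over the square root of F. CPM used TMM-scaled library sizes. DESeq2 1.42.0 and the other settings given in the closing section were alternatives. The procedure was tested on simulated counts. Replicates of a group differed by more than sampling noise (lowest chi-square per degree of freedom 1.23). The intervals of percent changes cover the spread between samples.

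The members and lists were chosen with earlier results of these data known. Named were all members, the called partners or else the 4 with the smallest p, called receptor subunits of the other families, and the 3 genes most alike to the member with the smallest p, of which 1 is not reported here. Other partners with values (C1ql2, C1ql3, Adarb1), Grin3b, the called markers and the uncalled markers Dlx1, Npy, Wfs1 and Bok were chosen after their values were seen.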

Additional observations from a re-analysis of the deposited data

Results flagged for a closer look

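In 18 sets of samples examined (by group, the CPM of the 7 members, the joint share of Grik4 and Grik5, and the share of Neto2 in the Neto pair), 2 held a sample whose gap to the nearest other sample exceeded the critical share of the range at the 95% level, and chance gives about 1 in 20. Grik1 in mimic replicate 3 was at 20.8 CPM while the other 4 mimic samples were at 22.3 to 22.9 CPM, a gap of 0.721 of the range. Grik4 in control replicate 2 was at 95.1 CPM while the other 5 control samples were at 100.1 to 102.9 CPM, a gap of 0.639 of the range.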

How the results depend on the processing

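Of 133 member values under alternative settings, 117 kept their direction and their side of the threshold, and 0 of 7 members were called in any fit. The log2 fold change of Grik2 turned to 0.0050 with upper-quartile scaling and ran from -0.015 to 0.016 with 1 sample left out; that of Neto2 turned to 0.0073 and ran from -0.035 to 0.025. Grik1 (0.063 to 0.10), Grik3 (-0.11 to -0.042), Grik4 (-0.078 to -0.048), Grik5 (-0.074 to -0.020) and Neto1 (-0.13 to -0.060) kept their sign with 1 sample left out. The exact permutation test, unadjusted, was passed by Grik4 (-0.065, p = 0.0390) and Neto1 (-0.10, p = 0.0411). With the longest transcript as length, the control level was 51.2 CPM per kb for Grik5, 15.7 for Neto2, 7.59 for Grik2 and 5.78 for Grik1. The number of genes called, 495, became 785 without a count filter and 218 to 491 with 1 sample left out (218 without control replicate 1, 237 without mimic replicate 2, 278 without mimic replicate 4); the number of partners called ran from 0 to 1. Of the calls, 62.0% (307 of 495) were lower in mimic, and 49.1% (226 of 460) with upper-quartile scaling. Without control replicate 4 the share was 49.8% (199 of 400).

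Same-numbered samples did not deviate together (correlations -0.023 to 0.016), so they share only a number. With the replicate number as a block, leaving out control replicate 6, 328 genes were called (154 lower, 47.0%), Grik2 was at 0.015 and Neto1 at -0.11, and no other member changed direction.

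Members at these depths gave SEs of 0.029 to 0.049 on the log2 scale, and the smallest called changes among genes of like abundance were 0.086 to 0.13 in size. The SEs of Grik3, Grik5 and Neto2 exceeded those of 90.6%, 92.1% and 88.0% of such genes, and the smallest change detectable in each member was not computed.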

Other observations

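The genes most alike to Neto1, the member with the smallest p, were sought over the 11 samples among the 13927 tested genes whose mean reached 1 CPM. Among the highest Pearson correlations of log2 CPM were those of Cab39, a scaffold of the kinase LKB1 (r = 0.932), and Snap25 (r = 0.929). After the group means were subtracted, the highest were those of Tbc1d19 (r = 0.938), Ap3m1, a subunit of an adaptor complex (r = 0.929), and Tmem33 (r = 0.921). Being the highest of so many, these values describe 11 libraries of differing depth and carry no p.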
